A study of Mus musculus with 24 samples.

Results

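The genes of cholesterol and fatty acid synthesis are described here across the 8 BURP bladder tumor lines, as 28 genes chosen by name from 53465 genes in the count table. They comprise 7 enzymes of the mevalonate arm (Acat2, Hmgcs1, Mvk, Pmvk, Mvd, Idi1 and Fdps), 11 enzymes of the sterol arm (Fdft1, Sqle, Lss, Cyp51, Tm7sf2, Msmo1, Nsdhl, Hsd17b7, Ebp, Sc5d and Dhcr7), 4 regulators or transporters (Srebf1, Srebf2, Insig1 and Stard4) and 6 genes of the fatty acid arm (Acly, Acaca, Fasn, Elovl6, Scd1 and Scd2). The rule that names them uses no measured value. Each was found by its Ensembl identifier, and all 28 passed the filter on low counts, which left 21383 genes over the 24 tumors.

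The tumors arose in C57BL/6NTac mice that drank the bladder carcinogen BBN at 0.1% from 8 weeks of age for up to 36 weeks, and were then carried as tissue pieces under the skin of untreated hosts of the same strain and sex. RNA of 3 allografts per line was sequenced after removal of ribosomal RNA. Of the 6 basal/squamous (Ba/Sq) lines, BURP-18BaSq, BURP-17BaSq and BURP-12BaSq came from males and BURP-25BaSq, BURP-24BaSq and BURP-21BaSq from females, whereas the sarcomatoid line BURP-16SR and the line named neuroendocrine, BURP-19NE, came from males. Each line descends from 1 donor tumor, so a line and its subtype cannot be told apart for BURP-16SR and BURP-19NE. Any single line holds only allografts of 1 donor, so the p-values measure no spread between donors on its side. In fits against Ba/Sq tumors, the spread comes mostly from these pooled tumors and also holds the differences among their lines. The main fits treated tumors of 1 donor as independent. Since whole allografts with their host cells were sequenced, fewer cells of a type and less RNA per cell cannot be told apart.

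Animal cells build cholesterol from acetyl-CoA. The mevalonate arm makes isoprenoid units, and the sterol arm joins them into squalene, closes the rings and trims the product to cholesterol. When sterols run low, the membrane-bound SREBP transcription factors, encoded by Srebf2 and Srebf1, are cut free and switch on most enzymes of both arms, while INSIG proteins hold SREBP back when sterols are plentiful. The fatty acid arm turns citrate into saturated chains, lengthens them and puts in a double bond, and is driven mainly by the product of Srebf1. In skin and in stratified epithelia these lipids also supply the barrier, and adipocytes and sebaceous cells hold the fatty acid enzymes at high levels.

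Library totals ran from 9295747 to 25370356 counts (median 17693198), so that 3 counts corresponded to 0.106 to 1.34 CPM (counts scaled to a common library size with TMM factors). The lowest count of any of the 28 genes in any tumor was 11, for Tm7sf2. A pair of BURP-25BaSq tumors stood apart. In C102-M30 the ribosomal gene CT010467.1 took 61.9% of the counts, and C102-M1 lay nearer to the BURP-21BaSq tumors (mean root-mean-square log2 difference 0.51 over 21545 genes) than to the other 2 tumors of its own line (1.38, with C102-M30 among them), which puts its label in doubt. C102-M3 lay nearer to BURP-21BaSq (0.94) than to its own line (1.33, again with C102-M30 among them), though less near than C102-M1 did. That mean does not place C102-M3 nearer to BURP-21BaSq than to C102-M1. C102-M30 was far from both (1.90 and 1.77). These distances were scaled by library totals without TMM factors. The TMM factor of C102-M30 was 0.26, so its ribosomal share enters every distance that involves this tumor. Marker genes set the line names against the data. The summed CPM of Krt5, Krt14, Krt6a and Trp63 was 7828 to 20206 in the Ba/Sq tumors and at most 1.27 in the BURP-16SR and BURP-19NE tumors, and the epithelial gene Cdh1 averaged 487 CPM in the Ba/Sq lines, 5.33 in BURP-16SR and 1.36 in BURP-19NE. Vim, a mesenchymal filament gene, averaged 1492 CPM in BURP-16SR, 661 in BURP-19NE and 119 in the Ba/Sq lines. The other mesenchymal genes read, Zeb1, Zeb2 and Twist1, had the opposite order of these lines, with higher means in BURP-19NE than in BURP-16SR. Zeb2 averaged 418 CPM in BURP-19NE, 161 in BURP-16SR and 69.3 in the Ba/Sq lines, and Twist1 60.5, 33.7 and 13.4. Of 5 neuroendocrine markers, BURP-19NE was above every Ba/Sq tumor in Ncam1 (245 to 359 CPM against 2.52 to 104), while Insm1 and Neurod1 were at 0 in its 3 tumors and Chga and Syp stayed under 1 CPM. BURP-19NE is therefore used below as the name of a line and not as a cell type. The study gave the name from the consensus classifier and from high synaptophysin protein in stained sections. It also reported high synaptophysin in BURP-16SR, a replicate of which classified as neuroendocrine-like. TP63 protein was reported as high in BURP-19NE, where the RNA sum that includes Trp63 was at most 1.14 CPM. Protein was not measured here, and Syp RNA was also at most 1.10 CPM in the Ba/Sq tumors and 0.91 in BURP-16SR.

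The promoters were searched for the letters that SREBP and a partner factor bind. RefSeq promoter windows of the GRCm38.p6 build, from 250 bases before to 50 after the start, were matched for 22 of the 28 genes by symbol; Stard4, Sqle, Fdps, Fdft1, Scd1 and Scd2 were not matched. The sterol regulatory element, searched as TCACNCCAC or its reverse GTGGNGTGA, occurred in 1.24% of 32851 promoters and in 1 member, Hmgcs1. The box bound by NF-Y, a partner of SREBP, searched as CCAAT or its reverse ATTGG, occurred in 37.4% of promoters, in 41.1% of 27025 genes and in 86.4% (19 of 22) of the matched members, the exceptions being Acat2, Acaca and Elovl6. The only Acaca window, chr11:84195188-84195487, lies inside the gene, which starts at 84129672, so the promoter at that start was not searched. Both motifs stood together in 0.441% of promoters. A match describes letters in this window and does not show binding. A missing match does not show that an element is absent, since other spellings and other windows were not searched. The 250 bases upstream of the start are printed, in the direction of the gene, for Hmgcs1 as the one member with both motifs, Mvk as an enzyme with 5 boxes that differed widely among lines, Ebp as a sterol enzyme with 2 boxes that did not pass the test among lines, and Fasn for the fatty acid arm; capitals mark the motifs, and in the last run of capitals in Fasn the box lies on both strands with 2 letters shared.
Hmgcs1, chr13:119690101-119690350, plus strand: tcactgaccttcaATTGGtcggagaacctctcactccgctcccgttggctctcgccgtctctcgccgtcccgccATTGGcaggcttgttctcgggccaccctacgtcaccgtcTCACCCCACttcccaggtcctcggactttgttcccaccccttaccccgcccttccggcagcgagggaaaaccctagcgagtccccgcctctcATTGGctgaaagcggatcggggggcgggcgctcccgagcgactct
Mvk, chr5:114444019-114444268, plus strand: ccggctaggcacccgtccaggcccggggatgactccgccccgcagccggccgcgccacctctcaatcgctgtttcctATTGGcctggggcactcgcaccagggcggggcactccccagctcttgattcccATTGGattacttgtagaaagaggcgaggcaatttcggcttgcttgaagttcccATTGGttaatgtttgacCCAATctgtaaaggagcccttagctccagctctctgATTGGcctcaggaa
Ebp, chrX:8193513-8193762, minus strand: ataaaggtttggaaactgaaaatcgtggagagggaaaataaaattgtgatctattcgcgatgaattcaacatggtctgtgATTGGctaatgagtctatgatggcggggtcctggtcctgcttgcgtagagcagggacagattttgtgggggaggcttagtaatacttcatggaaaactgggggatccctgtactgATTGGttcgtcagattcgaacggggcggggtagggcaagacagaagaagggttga
Fasn, chr11:120824548-120824797, minus strand: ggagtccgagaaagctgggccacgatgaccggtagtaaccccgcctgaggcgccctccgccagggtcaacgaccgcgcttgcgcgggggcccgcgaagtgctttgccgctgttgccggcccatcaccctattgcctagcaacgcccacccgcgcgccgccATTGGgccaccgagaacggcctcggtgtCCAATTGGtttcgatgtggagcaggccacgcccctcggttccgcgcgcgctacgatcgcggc

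Across the 8 lines, the genes of both cholesterol arms followed 1 ordering, with BURP-24BaSq at the top and BURP-16SR and BURP-19NE at the bottom. Of the 18 mevalonate and sterol genes, BURP-24BaSq had the highest line mean in 15, and BURP-16SR or BURP-19NE had the lowest in 17 (BURP-16SR in 9, BURP-19NE in 8). Both of these lines took the last 2 places in 13 of the 18, and in 6 all their tumors lay below all 18 Ba/Sq tumors, as they did in 3.1% of all genes tested. Among the Ba/Sq lines, BURP-12BaSq had the lowest mean in 15 of the 18. The fatty acid arm did not follow this order, since BURP-24BaSq was the highest line for 0 of its 6 genes and BURP-18BaSq for 3.

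**Figure D1:**
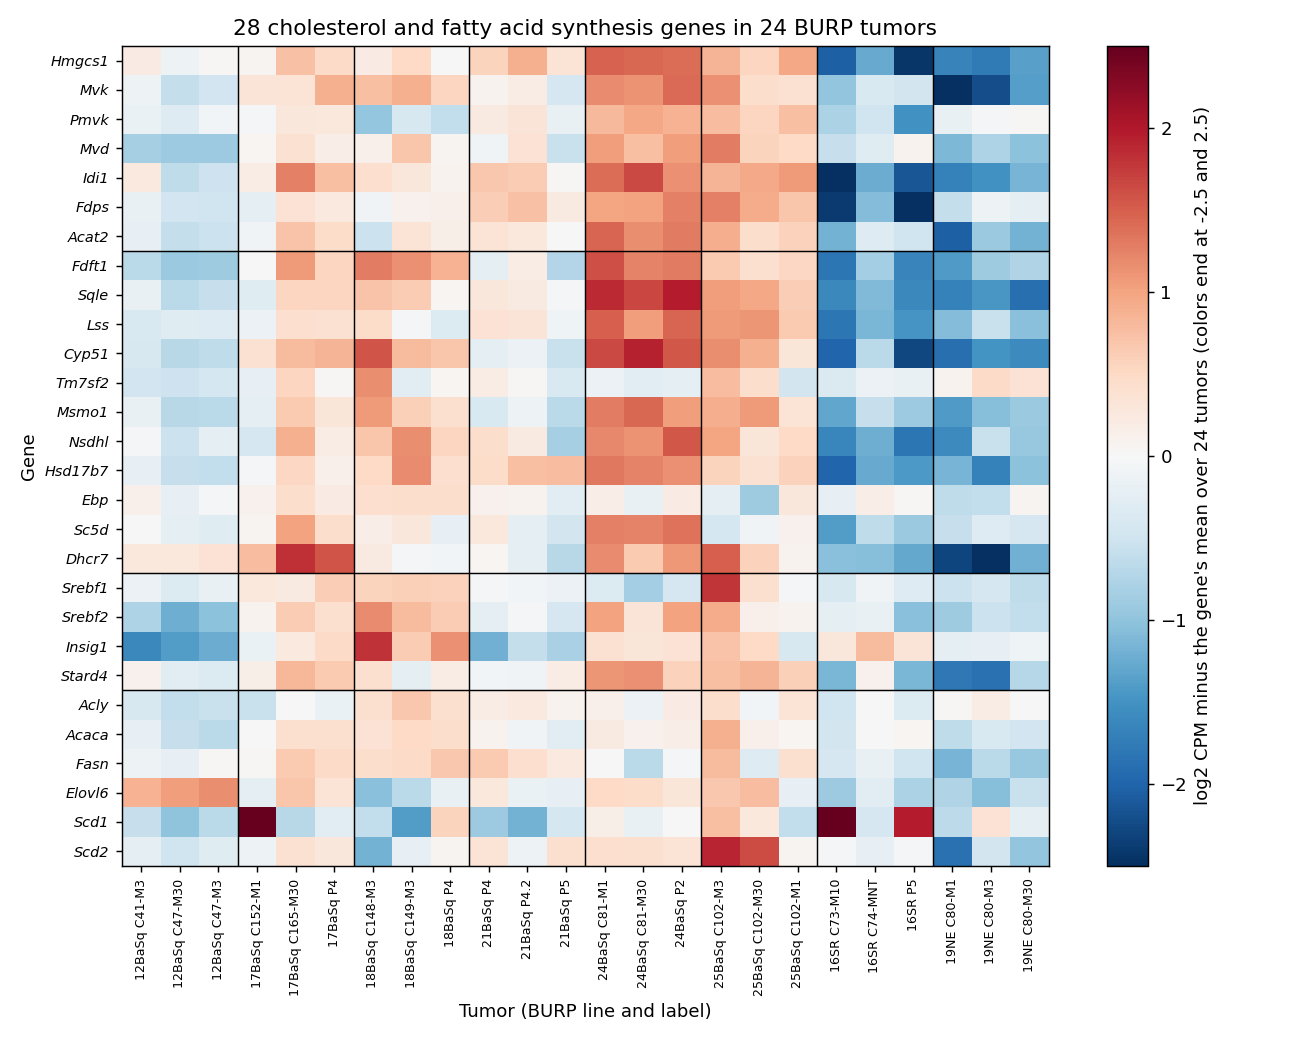
Heat map of the 28 genes (rows, grouped by arm) in the 24 tumors (columns, 3 per line), where color gives log2 CPM centred on the mean of the gene over all tumors. Most rows of the mevalonate and sterol arms are high in the BURP-24BaSq tumors and low in the BURP-16SR and BURP-19NE tumors, while Pmvk and Fdps in BURP-19NE and Mvd in BURP-16SR have line means above BURP-12BaSq, and Tm7sf2 and Ebp vary little.

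In edgeR's quasi-likelihood F test of the 8 lines together, 26 of the 28 genes passed (adjusted p under 0.05, Benjamini-Hochberg over all genes), where 76.7% of all genes tested did. Sqle, squalene epoxidase, had the smallest adjusted p (9.94e-09), with a largest difference between line coefficients of 3.51 on the log2 scale. Ebp, a sterol isomerase, and Tm7sf2, a sterol reductase, did not pass (adjusted p = 0.106 and 0.157), and their largest line differences were 0.79 and 0.94; both passed when C102-M1 was left out, with 28 genes called. Differences between lines held a median of 87.38% of the variance in log2 CPM over the 28 genes and 69.07% over all genes that passed the filter, and 25 of the 28 exceeded the latter. The share was highest for Sqle (95.58%) and lowest for Scd1 (41.44%), whose tumors varied widely within lines.

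Hmgcs1 (chr13:119690379-119708260, plus strand, GRCm38) encodes the cytosolic HMG-CoA synthase that starts the committed path to mevalonate. It was measured at 292, 285 and 276 CPM in the 3 BURP-24BaSq tumors (C81-M1, C81-M30 and P2) and at 190.0, 154 and 205 CPM in BURP-25BaSq (C102-M3, C102-M30 and C102-M1). The middle lines were at 154, 195 and 133 CPM in BURP-21BaSq (P4, P4.2 and P5), at 109.8, 175 and 147 in BURP-17BaSq (C152-M1, C165-M30 and P4) and at 125 ± 20.97 (SD, n = 3) in BURP-18BaSq, whose tumors are named C148-M3, C149-M3 and P4. The lowest were at 122, 95.8 and 108 CPM in BURP-12BaSq (C41-M3, C47-M30 and C47-M3), at 33.1, 30.7 and 41.03 in BURP-19NE (C80-M1, C80-M3 and C80-M30) and at 25.4, 43.7 and 19.5 in BURP-16SR (C73-M10, C74-MNT and P5). Read in this order of line means, the tumors of neighboring lines were apart at 2 steps. These were from BURP-24BaSq to BURP-25BaSq, a drop of 0.65 on the log2 scale, and from BURP-12BaSq to BURP-19NE, a drop of 1.63, while all other neighbors overlapped.

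Idi1 (chr13:8885501-8892451, plus strand), the isomerase that readies isoprenoid units for joining, kept nearly the same order, with its tumors named from here on in the sequence just given for each line. Its levels were 126, 149.1 and 105 CPM in BURP-24BaSq, 86.2, 92.2 and 99.4 in BURP-25BaSq, and 54.0, 115 and 79.6 in BURP-17BaSq. In BURP-21BaSq they were 75.5, 73.3 and 48.2 CPM, in BURP-18BaSq 63.5, 57.7 and 50.2, and in BURP-12BaSq 56.0, 30.5 and 33.3. BURP-19NE followed with 14.7, 16.5 and 21.1 CPM and BURP-16SR with 7.29, 19.97 and 10.7. Again the neighbors in this order were apart at the top, between BURP-24BaSq and BURP-25BaSq (0.44), and above BURP-19NE (1.15), and the 2 lowest lines overlapped each other.

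Of the other 5 genes of the mevalonate arm, Pmvk and Mvd varied over narrower ranges than the rest. Fdps, which makes farnesyl diphosphate, ran from 6.58 to 98.0 CPM, and Acat2, the thiolase that supplies acetoacetyl-CoA, from 4.80 to 55.7. The kinases Mvk and Pmvk ran from 1.60 to 27.4 and from 3.15 to 18.2 CPM, and the decarboxylase Mvd from 3.96 to 21.3. Counts of Hmgcs1, Idi1, Fdps and Acat2 were not whole in 24 of 24 tumors, a sign that the authors' counting shared reads between these genes and near-identical copies, so their levels are less certain than those of Mvk, Pmvk and Mvd, whose counts were whole. A count is called not whole here if it was deposited with any fractional part. Of the sterol arm this held for Fdft1 in 24 tumors, Tm7sf2 in 22, Cyp51 in 18 and Lss in 15, and of the fatty acid arm for Acaca, Scd1 and Scd2 in 24 and Elovl6 in 8, while the other 16 of the 28 genes were whole in every tumor.

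Sqle (chr15:59315077-59331192, plus strand), the first oxygen-dependent step of the sterol arm, had the largest share of variance between lines. It stood at 256, 223 and 272 CPM in BURP-24BaSq, 144, 136 and 106 in BURP-25BaSq, and 114, 109 and 72.5 in BURP-18BaSq. BURP-17BaSq had 56.4, 101 and 101 CPM, BURP-21BaSq 84.9, 81.2 and 68.5, and BURP-12BaSq 61.1, 43.9 and 46.8. The lowest levels were 22.6, 32.5 and 22.8 CPM in BURP-16SR and 21.6, 25.5 and 18.9 in BURP-19NE. All tumors of BURP-24BaSq therefore lay above all other tumors, with a step of 0.97 on the log2 scale to BURP-25BaSq, and further steps without overlap lay from BURP-21BaSq to BURP-12BaSq (0.64) and from BURP-12BaSq to BURP-16SR (0.96).

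Dhcr7 (chr7:143823145-143848410, plus strand), the reductase that completes cholesterol, was instead highest in BURP-17BaSq, at 49.0, 101 and 84.7 CPM. BURP-24BaSq had 64.6, 45.0 and 60.8 CPM, BURP-25BaSq 80.2, 42.5 and 30.3, and BURP-12BaSq 34.4, 34.2 and 36.8. BURP-18BaSq had 33.5, 27.5 and 27.2 CPM and BURP-21BaSq 29.6, 24.4 and 17.7. Below these lay BURP-16SR at 13.8, 13.5 and 11.8 CPM and BURP-19NE at 5.68, 4.90 and 12.3. Neighboring lines were apart between BURP-12BaSq and BURP-18BaSq (0.26) and between BURP-21BaSq and BURP-16SR (0.84).

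Among the other sterol genes, Cyp51, the lanosterol demethylase, had the widest range of line means (3.36 on the log2 scale) and ran from 15.04 to 276 CPM. Msmo1, which oxidizes methyl groups, ran from 27.9 to 202 CPM, with a narrower range of line means (2.39). Squalene synthase Fdft1 ran from 13.7 to 147.8 CPM and lanosterol synthase Lss, which closes the rings, from 11.95 to 118. Nsdhl and Hsd17b7, which act with Msmo1 in removing methyl groups, ran from 4.97 to 52.2 and from 5.76 to 57.7 CPM, and the desaturase Sc5d from 14.0 to 94.6. Ebp and Tm7sf2 kept to 10.3 to 26.0 and 2.51 to 8.24 CPM.

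The regulators varied by another order. Insig1 (chr5:28071363-28078662, plus strand), the brake on SREBP and itself an SREBP target, was highest in BURP-18BaSq at 108, 48.0 and 68.2 CPM, followed by BURP-16SR at 37.6, 53.3 and 38.7. BURP-24BaSq had 40.0, 38.2 and 39.4 CPM, BURP-25BaSq 50.5, 43.4 and 23.5, and BURP-17BaSq 27.3, 36.4 and 42.9. The lowest lines were BURP-19NE at 26.2, 26.7 and 28.6 CPM, BURP-21BaSq at 13.3, 20.5 and 17.5, and BURP-12BaSq at 10.05, 11.6 and 12.9. BURP-16SR, one of the lowest lines for the enzymes, was thus second in Insig1, and steps without overlap lay from BURP-19NE to BURP-21BaSq (0.69) and from there to BURP-12BaSq (0.55).

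Srebf2 (chr15:82147181-82205379, plus strand), the main activator of the cholesterol arms, had 297, 225 and 203 CPM in BURP-18BaSq, 262, 164 and 264 in BURP-24BaSq, and 247, 144 and 138 in BURP-25BaSq. Levels were 139, 204 and 172 CPM in BURP-17BaSq, 111, 129 and 98.1 in BURP-21BaSq, and 112, 115 and 63.1 in BURP-16SR. BURP-19NE had 70.6, 90.1 and 85.2 CPM and BURP-12BaSq 76.4, 56.0 and 64.1. Neighboring lines were apart at 1 step, from BURP-17BaSq to BURP-21BaSq (0.60), which parts the 4 high lines from the 4 low ones.

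Srebf1 (chr11:60199089-60222581, minus strand) was flatter. The highest tumor was C102-M3 of BURP-25BaSq at 199 CPM, beside 76.1 and 55.8 in the other 2 tumors of that line. BURP-18BaSq had 84.9, 87.3 and 86.2 CPM, BURP-17BaSq 69.0, 67.7 and 88.8, and BURP-21BaSq 55.6, 54.8 and 52.4. BURP-12BaSq had 51.9, 45.7 and 50.7 CPM, BURP-16SR 43.5, 54.6 and 46.2, BURP-19NE 39.9, 43.1 and 37.3, and BURP-24BaSq 45.6, 32.2 and 43.1. BURP-24BaSq, the highest line for most cholesterol enzymes, was thus the lowest line for Srebf1, although its tumors overlapped those of BURP-19NE. Steps without overlap lay from BURP-17BaSq to BURP-21BaSq (0.46), from there to BURP-12BaSq (0.14) and from BURP-16SR to BURP-19NE (0.26).

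Stard4, a carrier that moves cholesterol between membranes, was at 84.2, 86.4 and 58.3 CPM in BURP-24BaSq, 65.3, 70.7 and 58.9 in BURP-25BaSq, and 43.1, 69.7 and 60.99 in BURP-17BaSq. BURP-18BaSq had 51.4, 33.5 and 44.3 CPM, BURP-21BaSq 36.9, 36.6 and 44.1, and BURP-12BaSq 41.8, 32.6 and 30.5. The lowest lines were BURP-16SR at 17.6, 42.2 and 17.6 CPM and BURP-19NE at 11.2, 10.6 and 23.6. No 2 neighbors in this order were apart.

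In the fatty acid arm the stearoyl-CoA desaturases, which place the first double bond, had the widest spread of line means. Scd1 (chr19:44394455-44407879, minus strand) had 581, 56.8 and 299.7 CPM in BURP-16SR and 592, 46.96 and 62.4 in BURP-17BaSq. BURP-25BaSq had 128, 91.8 and 49.7 CPM, BURP-24BaSq 85.0, 67.2 and 75.8, and BURP-19NE 48.3, 97.6 and 65.2. The other lines had 50.1, 29.0 and 112 CPM (BURP-18BaSq), 51.6, 37.8 and 48.1 (BURP-12BaSq) and 40.4, 33.8 and 56.2 (BURP-21BaSq). Scd1 above 200 CPM was therefore a matter of 3 tumors, C73-M10 and P5 of BURP-16SR and C152-M1 of BURP-17BaSq, and no neighboring lines were apart.

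Adipocyte markers moved with part of this. The summed CPM of 9 such genes (Adipoq, Plin1, Cidec, Fabp4, Lep, Cfd, Plin4, Retn and Lipe) was 509.7 in C152-M1, against 59.7 and 33.4 in the other BURP-17BaSq tumors. C152-M1 held the highest level of 7 of the 9, among them Adipoq (33.4 CPM), Plin1 (24.2) and Cidec (25.7), which were at 0 in 10, 10 and 11 of the 24 tumors. In BURP-16SR the sum was 225 in C73-M10, 72.99 in C74-MNT and 37.4 in P5, so that P5 had high Scd1 beside a low marker sum. The sum was 12.5 to 14.2 in BURP-19NE, 19.8 to 24.7 in BURP-12BaSq, 34.2 to 51.2 in BURP-24BaSq, 28.3 to 145 in BURP-25BaSq, 106 to 152.2 in BURP-18BaSq and 62.9 to 259 in BURP-21BaSq. The sum of 259 was in P5 of BURP-21BaSq and came mostly from Fabp4 (245 CPM), although BURP-21BaSq was the lowest line for Scd1. Summed sebocyte markers (6 genes) were 4.75 to 6.71 CPM in BURP-16SR, 7.28 to 8.12 in BURP-19NE and 7.58 to 700.3 in the Ba/Sq lines, mostly from Krt79, with Awat1 at 0 in 22 tumors. The part of host fat in the Scd1 levels was not tested.

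Scd2 (chr19:44293674-44306864, plus strand), the paralog beside Scd1, was steadier. It had 1706, 1405 and 474 CPM in BURP-25BaSq, 602, 598 and 574 in BURP-24BaSq, and 572, 415 and 596 in BURP-21BaSq. BURP-17BaSq had 418, 593 and 549 CPM, BURP-16SR 447, 392 and 445, and BURP-12BaSq 385, 323 and 366. BURP-18BaSq had 200.4, 394 and 477 CPM and BURP-19NE 124, 331 and 228. The 2 highest tumors were those of BURP-25BaSq other than C102-M1, the tumor whose label is in doubt, and neighboring lines were apart from BURP-16SR to BURP-12BaSq alone (0.26). Per kilobase of exon, the ratio of Scd1 to Scd2 was 1.59 in C152-M1 and 1.45, 0.162 and 0.752 in the BURP-16SR tumors, whereas BURP-19NE had 0.434, 0.329 and 0.320 and the highest ratio in the remaining tumors was 0.279. Counts of both genes were not whole in any tumor, so reads shared between them may have been split by the counting.

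The remaining 4 genes of the arm had narrower ranges. Fasn, the synthase that builds palmitate, ran from 123 to 475 CPM, Acaca, which makes malonyl-CoA, from 80.6 to 237, and Acly, which cleaves citrate, from 96.6 to 239. Elovl6, which lengthens palmitate, ran from 23.98 to 113 CPM, and the 3 BURP-12BaSq tumors, at 92.9, 104 and 113, were above all others. Per length, on the RPKM scale, Scd2 was the most abundant of the 28 genes (mean over the 24 tumors 96.2), followed by Hmgcs1 (29.1), Acly (29.0) and Fasn (26.8), and Tm7sf2 was the least (0.863). This order pools all lines and need not hold within each line.

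**Figure D2:**
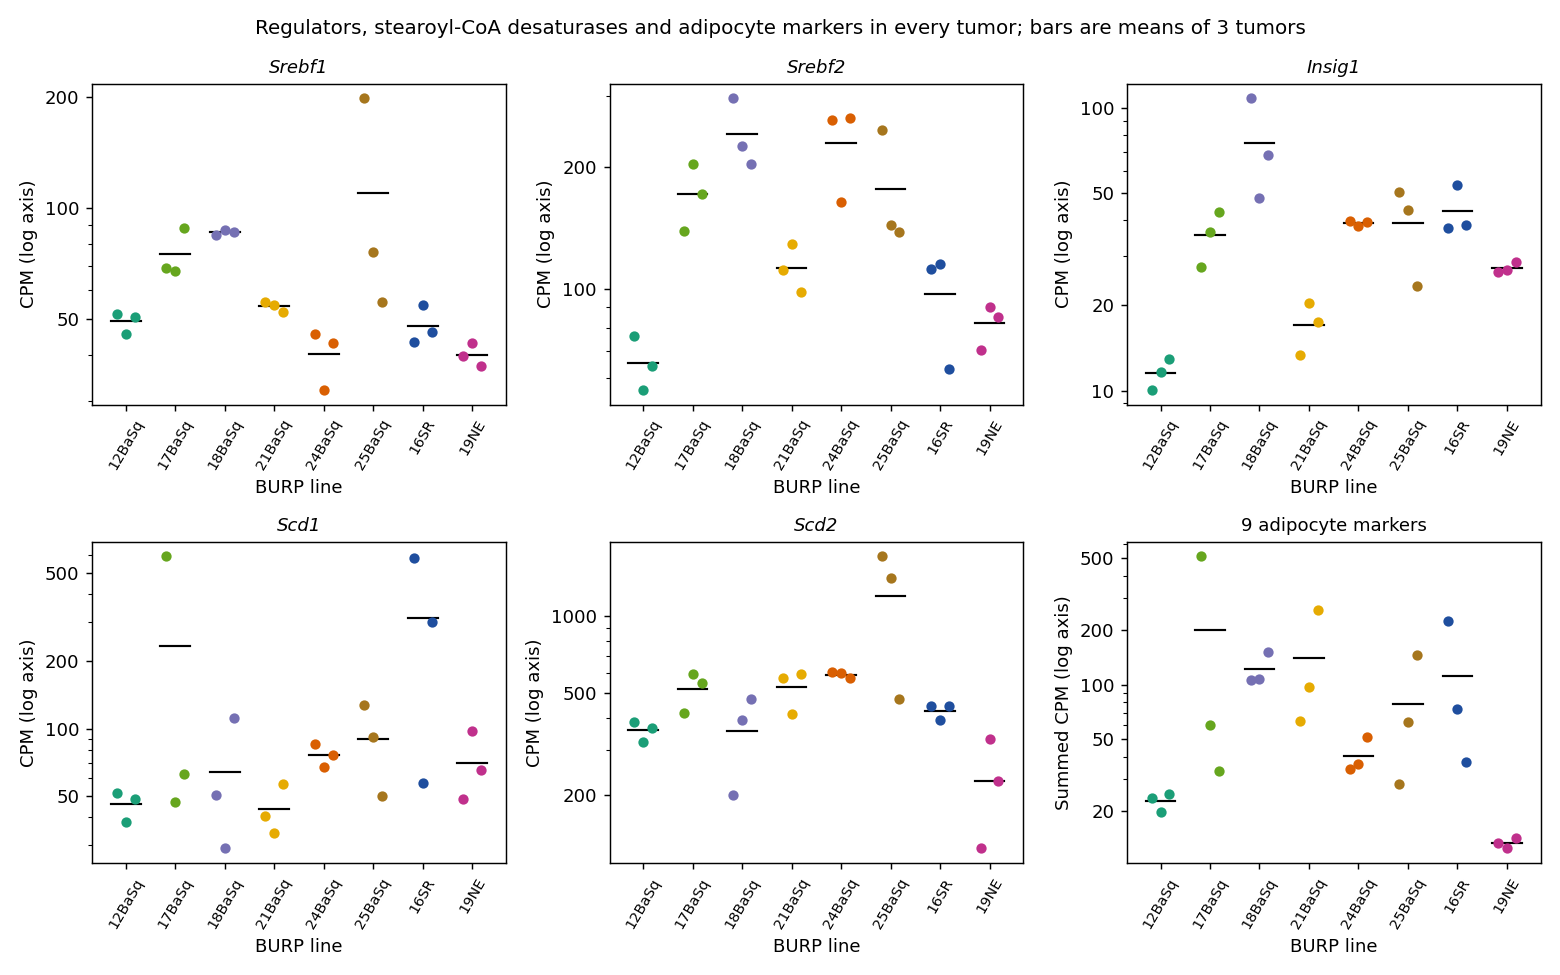
CPM (log axis) of Srebf1, Srebf2, Insig1, Scd1 and Scd2 and the summed CPM of 9 adipocyte markers in every tumor, by line; points are tumors and bars are means of 3 tumors. C152-M1 of BURP-17BaSq stands out in Scd1 (592) and in the marker sum (509.7), while Insig1 is lowest in BURP-12BaSq.

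Averaged over the genes of each group, as log2 CPM centred on the mean of each gene over the 24 tumors, the mevalonate arm stood at 1.18 in BURP-24BaSq and 0.78 in BURP-25BaSq, and the sterol arm at 1.10 and 0.50. BURP-16SR was at −1.21 and −1.12 and BURP-19NE at −1.12 and −1.02 for the same arms, and BURP-12BaSq at −0.37 and −0.35. The 3 BURP-24BaSq tumors differed little in the mevalonate arm (SD 0.02), whereas the BURP-16SR tumors were at −1.52, −0.73 and −1.37, with C74-MNT the highest. For the fatty acid arm the line means ran only from −0.57 in BURP-19NE to 0.44 in BURP-25BaSq, and BURP-16SR was at −0.00. The regulators were at 0.69 in BURP-18BaSq and at −0.71 and −0.70 in BURP-19NE and BURP-12BaSq.

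**Figure D3:**
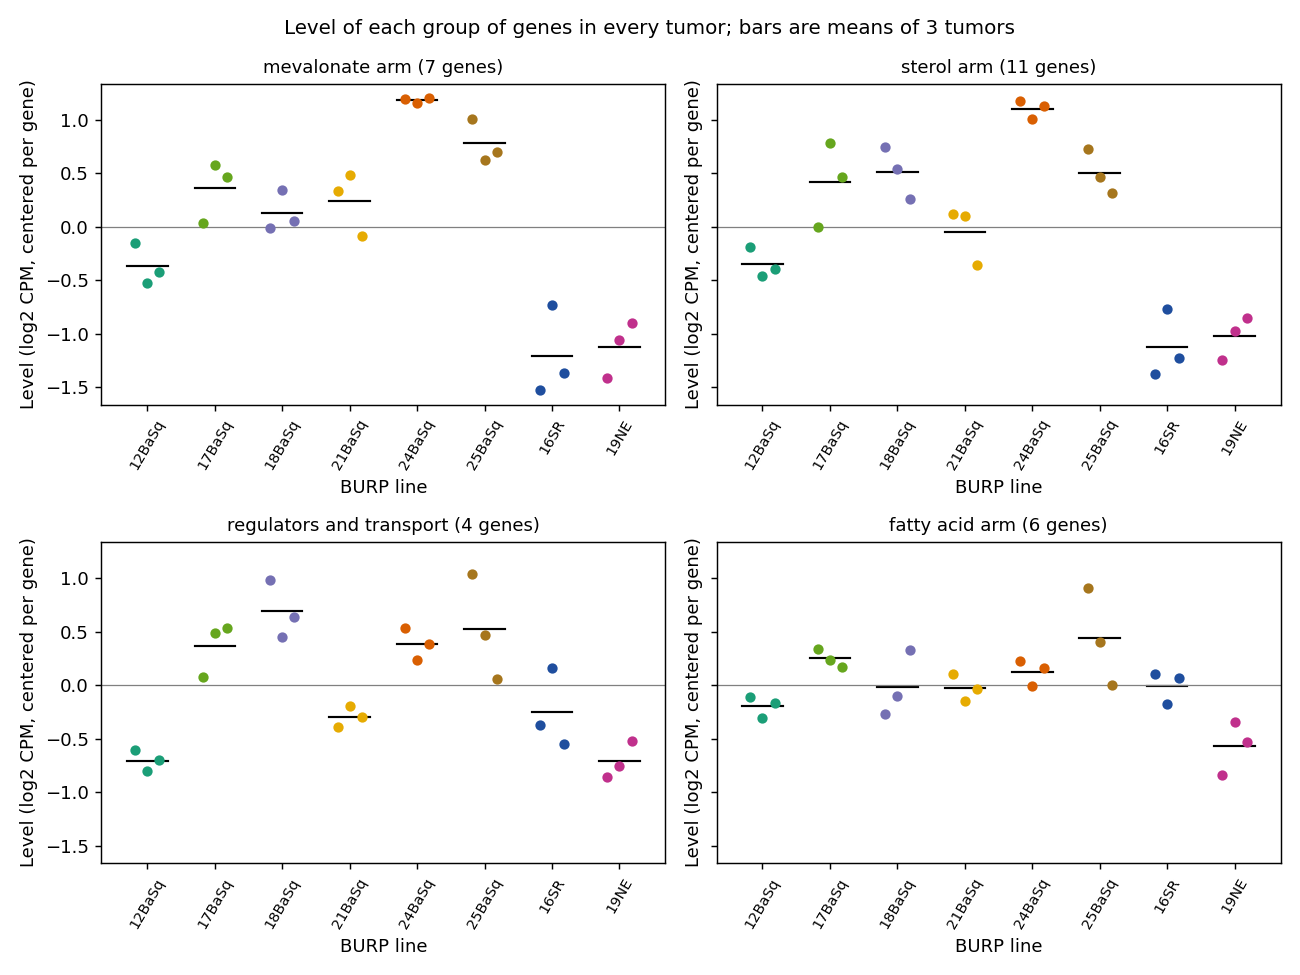
Mean centred log2 CPM of the genes of each group (mevalonate arm, sterol arm, regulators and transport, fatty acid arm) in every tumor, by line; points are tumors and bars are means of 3 tumors. The mevalonate and sterol panels run from about −1 in BURP-16SR and BURP-19NE to above 1 in BURP-24BaSq, and the fatty acid panel stays between −0.84 and 0.91.

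Within lines, single tumors were low or high for many of the 18 cholesterol genes at once. In BURP-17BaSq, C152-M1 had the lowest level of its line for 18 of the 18 mevalonate and sterol genes and C165-M30 the highest for 16. In BURP-16SR, C74-MNT was the highest for 16 and C73-M10 the lowest for 12, and in BURP-21BaSq, P5 was the lowest for 17. In BURP-12BaSq, C41-M3 was the highest for 14 and C47-M30 the lowest for 13. The lowest tumor was C80-M1 for 14 genes in BURP-19NE, P4 for 13 in BURP-18BaSq and C81-M30 for 11 in BURP-24BaSq, and C102-M3 was the highest for 11 in BURP-25BaSq. Summed fibroblast markers (7 genes) were 9796, 325 and 3021 CPM in the BURP-17BaSq tumors, where the lowest tumor for the cholesterol genes had the most, 7467, 20026.5 and 582 in BURP-16SR, where the highest tumor had the most, and 1334, 1098 and 2707 in BURP-21BaSq. Summed proliferation markers (6 genes) were 767, 1427 and 1115 CPM in BURP-17BaSq and 389, 804 and 548 in BURP-16SR, but 986, 1339 and 1392 in BURP-21BaSq, where the tumor with the most was the lowest for most cholesterol genes. The part of cell makeup or of proliferation in these differences was not tested.

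The first comparison of subtypes set the 3 BURP-19NE tumors against the 18 Ba/Sq tumors. Genes of both cholesterol arms fell, led by Mvk, mevalonate kinase, and Dhcr7. Of the 28 genes, 18 were lower and 0 were higher, where 17.9% of all 20995 genes tested were lower and 15.5% higher. The 18 were 5 of 7 mevalonate genes, 8 of 11 sterol genes, 4 of 6 fatty acid genes and 1 regulator or transporter, Stard4. The median log2 fold change of the 28 was −1.34 (all genes −0.14). All BURP-19NE tumors lay below all Ba/Sq tumors for 12 of the 28 and for 8.5% of all genes tested.

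Mvk had 2.54 ± 1.21 CPM (SD, n = 3) in BURP-19NE and 15.2 ± 6.09 (n = 18) in the Ba/Sq lines, a log2 fold change of −2.55 (SE 0.45, edgeR adjusted p = 0.000196). Dhcr7 had 7.61 ± 4.04 against 45.8 ± 23.4 CPM, a change of −2.55 (SE 0.50, edgeR adjusted p = 0.000553), and Cyp51 23.3 ± 3.15 against 125 ± 70.7 CPM, a change of −2.41 (SE 0.57, edgeR adjusted p = 0.00259). Without C80-M1 the count fell to 10. That tumor was the lowest of its line for 14 of the 18 cholesterol genes and had 579 summed CPM of 6 skeletal muscle markers, against 2.85 and 6.17 in the other 2. Among marker lists, the Ba/Sq tumors also differed from BURP-19NE in the basal/squamous sum given above, while summed fibroblast markers were 1171 to 1903 CPM in BURP-19NE and 207 to 9796 in the Ba/Sq lines, and proliferation markers 488 to 1087 and 657 to 2125; their part in the result was not tested.

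BURP-16SR, compared with the same 18 Ba/Sq tumors, was low in most genes of the cholesterol arms. Of the 28 genes, 15 were lower and 1 was higher, where 11.3% of all 21028 genes tested were lower and 13.8% higher. The lower genes were 5 of 7 mevalonate genes, 9 of 11 sterol genes and Stard4, and 0 of 6 fatty acid genes. In the fatty acid arm 5 of 6 fold changes were negative (median −0.33), Elovl6 (−0.91) was called lower by DESeq2 and with all 24 tumors in 1 fit, Fasn with all 24 tumors, and the difference between the arms was not tested. The median of the 28 was −1.05 (all genes −0.03), and all BURP-16SR tumors lay below all Ba/Sq tumors for 9 of the 28 and for 5.57% of all genes tested. Idi1 fell from 77.5 ± 32.4 CPM (SD, n = 18) to 12.7 ± 6.56 (n = 3), by 2.54 on the log2 scale (SE 0.47, edgeR adjusted p = 0.000405). Hmgcs1 fell from 168 ± 62.4 to 29.6 ± 12.6 CPM, by 2.43 (SE 0.39, edgeR adjusted p = 0.000107), and Fdps from 57.3 ± 22.4 to 11.1 ± 7.002 CPM, by 2.29 (SE 0.44, edgeR adjusted p = 0.000671). Leaving out C74-MNT moved the Fdps change to −2.95.

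Scd1 was the 1 gene that passed as higher, at 312 ± 262 CPM in BURP-16SR against 92.1 ± 128 (log2 fold change 1.84, SE 0.64, edgeR adjusted p = 0.0402). Its groups overlapped, and the call rested on single tumors, since without C73-M10 the change was 0.98 and it no longer passed without C73-M10, P5, C102-M30 or C102-M1, with no filter on low counts, or with ribosomal genes removed. Leaving out C73-M10 or P5 also brought the count of the 28 genes called from 16 to 8. Both comparisons share their 18 Ba/Sq tumors, so the values of BURP-19NE and BURP-16SR are not independent. Summed fibroblast markers in BURP-16SR (582 to 20026.5 CPM), macrophage markers (6 genes, 132 to 641 CPM against 18.5 to 819 in the Ba/Sq lines), endothelial markers (4 genes, 150 to 245 against 20.9 to 261) and lymphocyte markers (5 genes, 1.12 to 190.0 against 0.420 to 9.43) stood beside these values, and their part was not tested.

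Set against each other, BURP-16SR and BURP-19NE differed in 5 of the 28 genes, 4 higher and 1 lower in BURP-16SR, where 19.2% of all 17556 genes tested were higher and 15.1% lower. Mvk was higher in BURP-16SR (6.80 ± 1.502 against 2.54 ± 1.21 CPM, n = 3 each), with a log2 fold change of 1.51 (SE 0.40, edgeR adjusted p = 0.0291). The decarboxylase Mvd was higher by 0.83 (SE 0.25, edgeR adjusted p = 0.0451), Insig1 by 0.77 (SE 0.19, edgeR adjusted p = 0.0211) and Fasn by 0.65 (SE 0.18, edgeR adjusted p = 0.0311). Fdps was lower in BURP-16SR, at 11.1 ± 7.002 against 32.7 ± 5.33 CPM, with a change of −1.45 (SE 0.44, edgeR adjusted p = 0.0435), or −2.12 without C74-MNT. The groups did not overlap for 12 of the 28, with 6 higher and 6 lower in BURP-16SR, which is not above the 23.4% and 28.3% of all genes tested. The count was 0 without C80-M1, 2 without C80-M3, C80-M30 or C73-M10 and 3 without C74-MNT. It was at most 4 with any tumor left out, so the calls needed every tumor. Over 12 alternative fits the log2 fold changes kept their sign. They ran from 1.24 to 1.95 for Mvk, 0.63 to 0.94 for Mvd and 0.57 to 0.82 for Insig1. For Fasn they ran from 0.52 to 0.77 and for Fdps from −2.12 to −1.21.

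BURP-24BaSq and BURP-16SR, the pair of lines that the study treated with cisplatin, stood far apart in the cholesterol arms. Of the 28 genes, 19 were higher in BURP-24BaSq and 0 were lower, where 17.6% of all 18283 genes tested were higher and 20.4% lower. These were 7 of 7 mevalonate genes, 9 of 11 sterol genes, Srebf2, Stard4 and, of the fatty acid arm, Elovl6. The median of the 28 was 1.75 (all genes −0.05), and all BURP-24BaSq tumors lay above all BURP-16SR tumors for 21 of the 28 and for 28.2% of all genes tested. Idi1 was at 127 ± 22.1 CPM against 12.7 ± 6.56 (n = 3 each), a log2 fold change of 3.26 (SE 0.39, edgeR adjusted p = 0.00118). Sqle was at 250.3 ± 24.7 against 26.0 ± 5.65 CPM, a change of 3.21 (SE 0.22, edgeR adjusted p = 0.00013), and Hmgcs1 at 285 ± 7.80 against 29.6 ± 12.6 CPM, a change of 3.20 (SE 0.33, edgeR adjusted p = 0.000648). Ebp (0.01, SE 0.19) and Tm7sf2 (−0.05, SE 0.26) did not pass, nor did Scd1 (−2.10, SE 0.72, edgeR adjusted p = 0.0583). The count stayed between 17 and 20 when any 1 of the 6 tumors was left out. Summed proliferation markers were 1124 to 1183 CPM in BURP-24BaSq and 389 to 804 in BURP-16SR. Endothelial markers were 45.5 to 63.6 against 150 to 245 CPM, sebocyte markers 116 to 169 against 4.75 to 6.71, fibroblast markers 1113 to 1646 against 582 to 20026.5 and basal/squamous markers 14835 to 20206 against at most 1.27. The part of these cell types and of proliferation in the result was not tested.

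Within the Ba/Sq subtype each line was compared with the other 15 Ba/Sq tumors. BURP-12BaSq was the low line, with 11 of the 28 genes lower and 0 higher, where 3.06% of all 20523 genes tested were lower and 3.88% higher. The 11 included 4 mevalonate genes, 3 sterol genes, the regulators Insig1 and Srebf2 and 2 fatty acid genes, Acaca and Acly. The median of the 28 was −0.98 (all genes −0.09). Insig1 fell to 11.5 ± 1.44 CPM (n = 3) from 41.1 ± 23.4 (n = 15), a log2 fold change of −1.84 (SE 0.50, edgeR adjusted p = 0.0322). Fdft1 fell to 27.3 ± 2.66 from 83.1 ± 33.8 CPM, a change of −1.61 (SE 0.40, edgeR adjusted p = 0.0213), and Srebf2 to 65.5 ± 10.3 from 187 ± 61.9 CPM, a change of −1.51 (SE 0.32, edgeR adjusted p = 0.00812). The count was 2 without C41-M3 and 0 without C47-M30 or C47-M3. DESeq2 gave 17, of which 16 were lower and Elovl6 was higher (edgeR log2 fold change 0.86). Of the 6 Ba/Sq lines, BURP-12BaSq had the lowest mean of the summed fibroblast (293 CPM), endothelial (38.6), macrophage (122), adipocyte (22.7), sebocyte (11.4) and basal/squamous (8878) markers, whose part in the result was not tested.

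BURP-24BaSq was the high line, with 5 genes higher and 0 lower, where 1.45% of all genes tested were higher and 1.15% lower. All 5 belong to the cholesterol arms. Sqle was at 250.3 ± 24.7 CPM against 88.4 ± 30.8, a 2.83-fold difference (SE 0.27 on the log2 scale, edgeR adjusted p = 0.00544), and Sc5d at 90.1 ± 3.90 against 38.8 ± 11.96 CPM, a change of 1.21 (SE 0.22, edgeR adjusted p = 0.00544). Acat2 changed by 1.10 (SE 0.25, edgeR adjusted p = 0.0226), Lss by 1.06 (SE 0.27, edgeR adjusted p = 0.0412) and Hmgcs1 by 0.98 (SE 0.19, edgeR adjusted p = 0.0105). The median of the 28 was 0.76 (all genes −0.11). Without any 1 of C81-M1, C81-M30 or P2 the count fell to 2, Sqle and Sc5d. BURP-24BaSq also had the highest mean of the summed basal/squamous markers (18320.3 ± 3022 CPM, SD, n = 3, against 12382 over the 18 Ba/Sq tumors), whose part in the result was not tested.

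**Figure D4:**
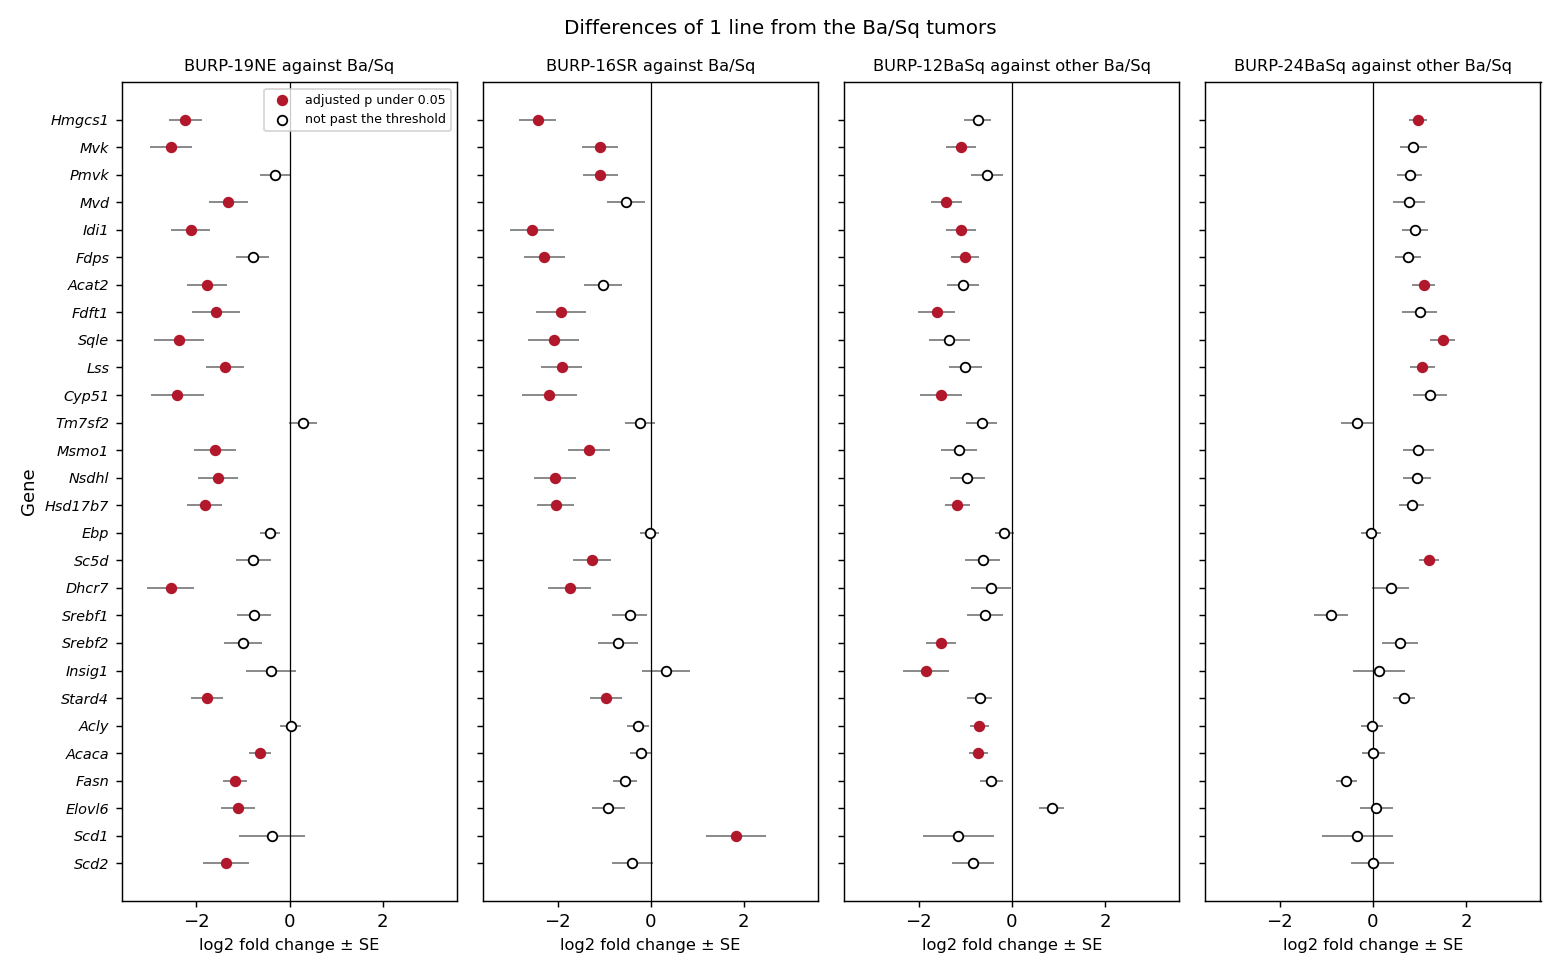
Fitted log2 fold change of each of the 28 genes, with bars of 1 SE, in BURP-19NE and BURP-16SR against the 18 Ba/Sq tumors and in BURP-12BaSq and BURP-24BaSq against the other 15 Ba/Sq tumors; filled points passed at an adjusted p under 0.05 and open points did not. Points of the cholesterol arms lie left of 0 in the first 3 panels except Tm7sf2 in BURP-19NE, reaching −2.55, and mostly right of 0 in the last, with Sqle farthest out.

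BURP-18BaSq had 1 gene higher and 2 lower, where 8.62% of all genes were higher and 7.27% lower, so the share of the 28 was below that of all genes. Insig1 was higher (74.8 ± 30.6 against 28.5 ± 13.7 CPM) by 1.41 on the log2 scale (SE 0.40, edgeR adjusted p = 0.0223). Pmvk fell to 5.87 ± 1.14 from 12.1 ± 3.61 CPM, a change of −1.03 (SE 0.29, edgeR adjusted p = 0.0224), and Elovl6 to 33.6 ± 10.2 from 70.8 ± 22.3 CPM, a change of −1.06 (SE 0.30, edgeR adjusted p = 0.0234). Without C148-M3 the count was 0, without C149-M3 it was 1 (Insig1), and without P4 it was 2 (Elovl6 and Insig1).

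The other lines gave 0 calls among the 28 genes in edgeR's quasi-likelihood test. In BURP-17BaSq, 1.17% of all genes were higher and 0.463% lower, and 2 of the 28 reached an unadjusted p under 0.05 (15.2% of all genes), Scd1 (1.88, SE 0.49, adjusted p = 0.0564) and Dhcr7. Scd1 passed without C165-M30, and DESeq2 gave 0 calls. In BURP-25BaSq, 0.278% of all genes were higher and 0.00975% lower, and 2 of the 28 had an unadjusted p under 0.05 (9.35% of all genes), Srebf1 and Scd2 (1.34, SE 0.29, adjusted p = 0.0522). Scd2 passed without C102-M1 and in DESeq2. In BURP-21BaSq, 0.00975% of all genes were higher and 0.00975% lower, and 4 of the 28 (Cyp51, Msmo1, Dhcr7 and Insig1) had an unadjusted p under 0.05 (10.8% of all genes) with a lowest adjusted p of 0.339; DESeq2 gave 0 calls. These shares of the 28 are near or below those of all genes.

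Male against female Ba/Sq lines, the sex comparison of the study, put 9 tumors of 3 lines on each side. Of the 28 genes, 4 were lower in the male lines and 0 higher, where 2.47% of all 17922 genes tested were lower and 2.99% higher. Fdps was at 39.4 ± 8.25 CPM in the male and 75.3 ± 16.6 in the female lines, a log2 fold change of −0.93 (SE 0.15, edgeR adjusted p = 0.00382). Lss changed by −0.90 (SE 0.21, edgeR adjusted p = 0.0196), Pmvk by −0.79 (SE 0.19, edgeR adjusted p = 0.02) and Hmgcs1 by −0.73 (SE 0.17, edgeR adjusted p = 0.0187). The 9 tumors of a sex come from 3 donors, and 0 of the 28 passed when line was a random effect (limma-voom) or when counts were summed per line, so no gene passed against the spread between lines. Without BURP-24BaSq 1 gene passed (Fdps), without BURP-12BaSq or BURP-25BaSq 2, and without BURP-17BaSq 7.

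The wider pathway was read from 45 further genes in 5 lists (SREBP processing, isoprenoid side branches and ketone body enzymes, sterol handling and efflux, fatty acid supply and desaturation, activation and storage). In BURP-19NE against Ba/Sq, 8 of 44 tested were higher and 5 lower, beside 15.5% and 17.9% of all genes. Counts of these lists are not read as a result about the lists, and single genes are given for their values. Soat1, which esterifies cholesterol for storage, rose from 39.3 ± 14.8 CPM to 215 ± 78.3 (2.47, SE 0.28, edgeR adjusted p = 8.62e-07), and Plin2, the coat protein of lipid droplets, from 39.1 ± 20.7 to 146 ± 25.2 CPM (1.92, SE 0.41, edgeR adjusted p = 0.00126). Pdss2, a subunit of the enzyme that makes the ubiquinone side chain, rose by 1.34. The desaturase family gene Fads3 changed by −3.70, the elongase Elovl7 by −3.31 and the sterol exporter Abcg1 by −2.49.

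BURP-16SR showed the same storage genes among the 5 of 44 that were higher, with Plin2 at 140 ± 55.7 CPM (1.91, SE 0.42, edgeR adjusted p = 0.00207) and Soat1 at 128 ± 8.41 CPM (1.78, SE 0.27, edgeR adjusted p = 5.77e-05), beside Cyp27a1, a sterol hydroxylase (29.5 ± 3.75 against 7.79 ± 5.79 CPM, edgeR adjusted p = 0.00257). The 2 lower genes were Elovl7 (−4.60) and Acss2, which makes acetyl-CoA from acetate (−0.99). For all genes the shares were 13.8% higher and 11.3% lower, and both lines are set against the same 18 tumors here. Between BURP-16SR and BURP-19NE, 10 of 40 were higher in BURP-16SR, led by Cyp27a1 (3.31), Fads2 (3.13) and Fads3 (2.94), and 2 were lower, Gpam (−0.82) and Pdss2 (−0.50), beside 19.2% and 15.1% of all genes. In BURP-24BaSq against BURP-16SR, 5 of 40 were higher, led by Elovl7 (5.23), Acsl1 (1.88) and Me1 (1.22), and 11 were lower, led by Cyp27a1 (−2.56), the sterol exporter Abca1 (−2.11) and Npc2 (−2.05), which carries cholesterol out of lysosomes, beside 17.6% and 20.4% of all genes.

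Within the Ba/Sq subtype few of these genes passed. BURP-12BaSq had 3 of 43 lower, Ch25h (−2.71), Fads3 (−2.58) and the NADPH source Me1 (−2.40), and 0 higher, beside 3.06% and 3.88% of all genes. BURP-18BaSq had 4 higher, led by Npc2 (2.84), Acsl4 (1.77) and Scap (0.86), the escort of SREBP, and Ggps1 lower (−0.58). Of all genes 8.62% were higher and 7.27% lower there. BURP-17BaSq had Cyp27a1 (1.52) and Thrsp (3.36) higher, the latter between 0.296 and 6.82 CPM in its 3 tumors and therefore near the floor, and BURP-25BaSq had Fads1 (2.10). The shares of all genes higher in these lines were 1.17% and 0.278%. BURP-21BaSq and BURP-24BaSq had 0 calls among the 43 in edgeR's test, with 3 and 5 at an unadjusted p under 0.05 (10.8% and 18.1% of all genes). Between the sexes Abcg1 alone of 40 was called, lower in the male lines (−1.73), beside 2.47% of all genes. That fit treats the tumors of a donor as independent.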

How the data were processed

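Bulk RNA-seq libraries of 24 allografts, 3 for each of 8 BURP lines, were analysed. According to the study's methods and the submitters' processing notes, the authors depleted ribosomal RNA, made reads with CASAVA 1.8.2, aligned them to GRCm38 with STAR 2.6.0a and counted genes with RSEM 1.3.1, and the deposited values are expected counts, of which 12.5% were not whole. RSEM shares reads among genes that they match equally, so levels of genes with close copies are less certain.

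The expected counts were rounded to whole numbers. TMM factors, CPM and tests came from edgeR 4.0.16 in R 4.3.3 (quasi-likelihood F test, genes kept by filterByExpr, Benjamini-Hochberg over all genes kept, called at an adjusted p under 0.05), with limma 3.58.1 and DESeq2 1.42.0 as alternatives. Each comparison used the tumors it names, with no covariate, and SE is the absolute log2 fold change over the square root of F. Log2 CPM used a prior count of 2, and RPKM the exon union length of the GRCm38 annotation, in which 99.8% of gene identifiers were found.

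Groups came from the sample labels, and the sex and subtype of each line from the labels and the study's methods. The 28 genes, the other gene lists and the tests were chosen with earlier results of these data known. The check of the subtype labels (neuroendocrine, mesenchymal and epithelial genes) was added after the values were seen. The values of every tumor are given for the 2 genes of each group with the widest range of line means and for Srebf1, Srebf2 and Insig1. Fold changes are given for the 3 largest called genes in each direction, or for all called when at most 5 were. Alternatives varied the test, normalization, filter, threshold, tumors in the fit and tumors left out (167 fits in all). The fits were also run on simulated counts, and the outcome of that run is not given here. The floor of 3 counts per library covers counting error only, since PCR reads without molecular identifiers are not independent molecules.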

Additional observations from a re-analysis of the deposited data

How the results depend on the processing

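No paired analysis was possible, since no code in the labels marks pairs of tumors across lines. The labels do not state what codes such as C41-M3 or P4 mean. The study names its passages with a P and a number, so P4 was read as a passage. For codes such as C41-M3 the passage is not known, and passage entered no fit. No comparison reversed. When the group levels used the median over genes in place of the mean, the sterol arm of BURP-24BaSq moved to 1.27, the regulators of BURP-21BaSq to −0.17, and the fatty acid arm of BURP-12BaSq and BURP-16SR to −0.39 and −0.27.

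Counts of the 28 genes called moved past 1.5 times as follows. In BURP-16SR against BURP-19NE the count was 2 with an added 2-fold threshold and 3 with no filter. In BURP-12BaSq it was 17 by DESeq2, 5 with no filter and 18 with all 24 tumors in 1 fit, with 1 gene higher (Elovl6) by DESeq2 and with all 24. In BURP-17BaSq it was 1 with at least 10 counts in every tumor, 1 with ribosomal genes removed and 2 with all 24 tumors, and in BURP-18BaSq 5 by DESeq2 and 6 with all 24. In BURP-21BaSq it was 4, in BURP-24BaSq against other Ba/Sq 18 and in BURP-25BaSq 5 with all 24 tumors, and in BURP-25BaSq 1 by DESeq2. Between the sexes it was 0 with a 2-fold threshold, 7 by DESeq2, 7 with at least 10 counts in every tumor, 10 with all 24 tumors, 0 with line as a random effect and 0 with counts summed per line.

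Leaving out 1 tumor at a time gave 26 to 28 genes for the 8 lines, 0 to 9 for BURP-12BaSq, 8 to 15 for BURP-16SR, 0 to 4 for BURP-16SR against BURP-19NE, 0 to 1 for BURP-17BaSq, 0 to 3 for BURP-18BaSq, 10 to 18 for BURP-19NE, 0 to 0 for BURP-21BaSq, 17 to 20 for BURP-24BaSq against BURP-16SR, 2 to 5 for BURP-24BaSq against other Ba/Sq and 0 to 1 for BURP-25BaSq. In fits of 1 line against pooled Ba/Sq tumors, only the 3 tumors of the named line, C102-M30 and C102-M1 were left out in turn. The other Ba/Sq tumors were never left out of those fits, so the ranges do not cover them. Leaving out a line, or 1 of the doubted tumors, gave 1 to 7 between the sexes. With 3 allografts per line from 1 donor each, small differences between neighboring lines were not detectable.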
